A study of Mus musculus with 6 samples.

Results

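Cell cycle and proliferation genes were examined in pancreatic islets, the hormone-secreting cell clusters of the pancreas, of KO and WT mice. The members were 30 genes listed by symbol as S phase or mitosis genes, and all 30 had a row in a count table of 40840 genes. The study compared 3 KO with 3 WT islet libraries, and its title gives the role of the receptor IGF2R in beta cells as its subject. Both genotypes were on a C57BL/6J background. The labels leave out how and in which cells the gene was removed, how old the mice were, of which sex, or whether each library came from another animal. The p-values therefore measure how these libraries vary, and part of that may be technical. Libraries are numbered here as the columns of the table are.

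A dividing cell first loads the MCM helicase onto its replication origins, then copies its DNA in S phase with PCNA as the sliding clamp of the polymerase, and then separates the copies in mitosis. Cyclins bound to cyclin-dependent kinases drive these steps, and the spindle checkpoint holds anaphase back until every chromosome is attached. Most of these genes are transcribed mainly in cycling cells. Beta cells of adult mice divide rarely, so cell cycle transcripts are low in adult islets, and they can come from any dividing cell of the islet, including endothelial and immune cells.

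Total counts ranged from 16689319 to 18956235 in KO libraries and from 16943764 to 18757633 in WT libraries. Levels are given in CPM, a gene's counts per library total scaled with TMM factors, which lay between 0.985 and 1.02. Igf2r, the targeted gene, stood at 49.3, 48.1 and 48.4 CPM in KO libraries and at 95, 128 and 115 CPM in WT libraries. Its log2 fold change, KO over WT, called the log2 ratio below, was -1.21 (SE 0.0946, edgeR quasi-likelihood test with Benjamini-Hochberg adjustment, adjusted p 0.00261), and all 3 KO libraries lay below all 3 WT libraries. The adjusted p no longer passed with the acinar covariate (0.275), without KO library 1 (0.130) and without KO library 2 (0.192), at log2 ratios of -1.25, -1.22 and -1.20. Markers of acinar cells, the enzyme-making cells around islets, set WT libraries 1 and 2 apart. Their summed level was 987, 2637 and 877 CPM in KO libraries 1 to 3, against 16936, 18004 and 2884 CPM in WT libraries 1 to 3. The log2 ratios were therefore also fitted with an acinar covariate, and with WT library 3 as the sole WT library. The covariate, a mean log2 CPM, was 4.77, 6.24 and 4.63 in KO libraries and 8.90, 9.01 and 6.35 in WT libraries. It largely follows the genotype, and only WT library 3 came near the KO libraries. Both settings therefore lean on that library and are not independent of each other.

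None of the cell cycle genes passed the test between KO and WT islets. The filter on low counts kept 27 of the 30 members, and 0 of the 27 passed an adjusted p of 0.05 in edgeR, beside 0.0123% of all 16240 genes tested. At an unadjusted p under 0.05 there were 2 members, Bub1b and Mki67, 7.41% of those tested against 11.0% of all genes tested. Both had lower values in KO (5.80% of all genes tested) and 0 members had higher ones (5.19% of all genes tested). Values were higher in KO for 14 of the 27 and lower for 13, and the median log2 ratio was 0.0025, beside a median of 5.3e-05 over all genes tested. With the acinar covariate 18 of the 27 were lower, at a median of -0.19, and against WT library 3 alone 20 of the 27, at a median of -0.092. Both settings lean on WT library 3, which had the highest level of 11 of the 30 members. The KO and WT libraries did not overlap for 5 members, 18.5% of those tested, against 15.7% of all genes tested. Bub1b and Kif11 were on the lower side, as were 7.69% of all genes tested, and Mcm3, Ccnb2 and Nusap1 on the higher side, as were 8.02%. DESeq2, an alternative tool, gave 0 of the 30 members an adjusted p, because its filter on mean counts left them out. It called 62 of the 6076 genes that had one (1.02%), and its unadjusted p was under 0.05 for the same genes, Bub1b and Mki67.

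The size of change that these libraries could show differed between the members. Counts per member and library ran from 3 to 351. The SE of the log2 ratio had a median of 0.249 over the members tested, against 0.0946 over all genes tested. The 95% interval of the log2 ratio stayed within a 2-fold change in either direction for 21 of the 27 members. The other 6 were Bub1b, Kif11, Cdk1, Ccnb2, Birc5 and Cenpe. For 10 members it stayed within a 1.5-fold change, and these were Mcm2, Mcm4, Mcm5, Mcm6, Mcm7, Pcna, Tyms, Ccne1, Ccne2 and Ccna2. A p above the threshold does not show that the other genes were at the same level in both genotypes.

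**Figure D1:**
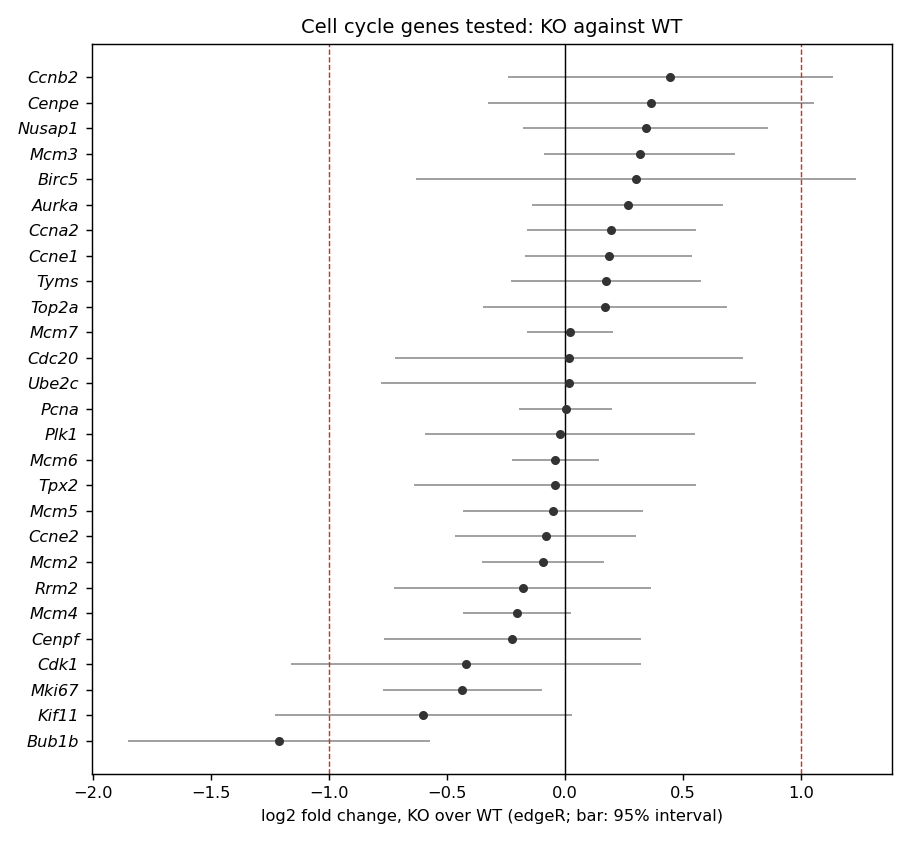
Log2 fold change, KO over WT, of the 27 cell cycle genes tested, from edgeR. Points are estimates, bars are 95% intervals, and dashed lines mark a 2-fold change; the interval excludes 0 for Bub1b and Mki67, which did not pass after adjustment.

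Summed, the cell cycle genes differed between the genotypes by less than the SD between libraries. The summed level was 122, 115 and 121 CPM in KO libraries 1 to 3, against 123, 116 and 129 CPM in WT libraries 1 to 3. The ranges overlapped, and the means were 119 ± 3.92 CPM in KO and 123 ± 6.28 CPM in WT (SD, n = 3 each), a ratio of 0.973. As a share of counts this was 0.0113% to 0.0123% in KO libraries and 0.0115% to 0.0129% in WT libraries. Each share had a 95% Clopper-Pearson interval, covering counting error only, such as 0.0124% to 0.0134% in WT library 3. WT library 3 had the highest level of 11 of the 30 members. KO library 2 and WT library 2 had the highest level of 2 members each, and WT library 2 the lowest level of 8. In bulk RNA, fewer dividing cells and less of these transcripts per dividing cell cannot be told apart.

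**Figure D2:**
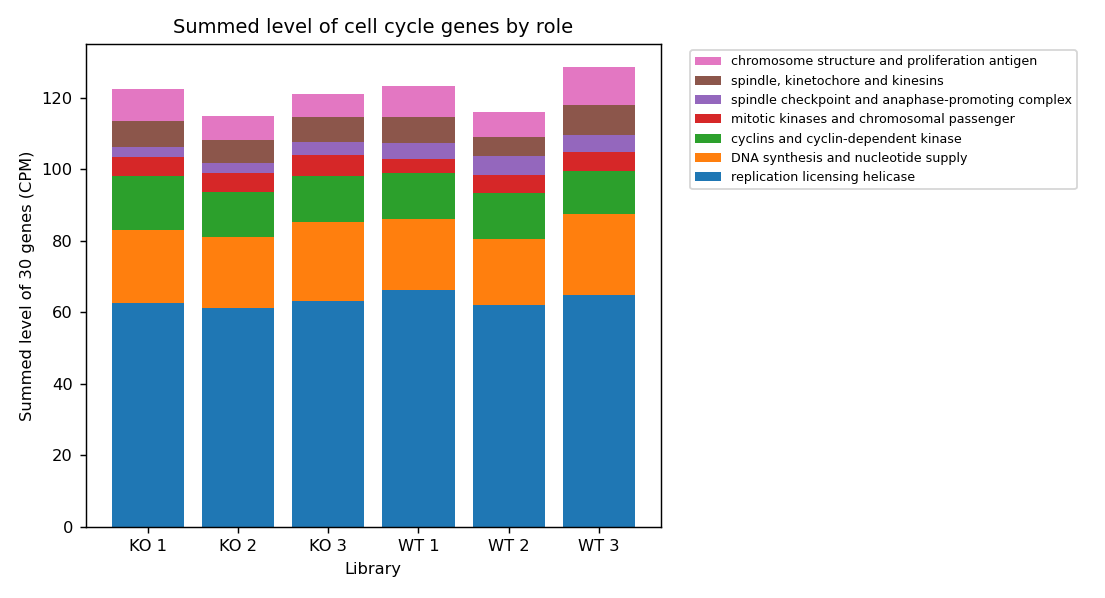
Summed level of the 30 cell cycle genes in CPM for each library, stacked by role. KO libraries stand at 115 to 122 CPM and WT libraries at 116 to 129 CPM, and the helicase genes make up the largest part in each.

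**Figure D3:**
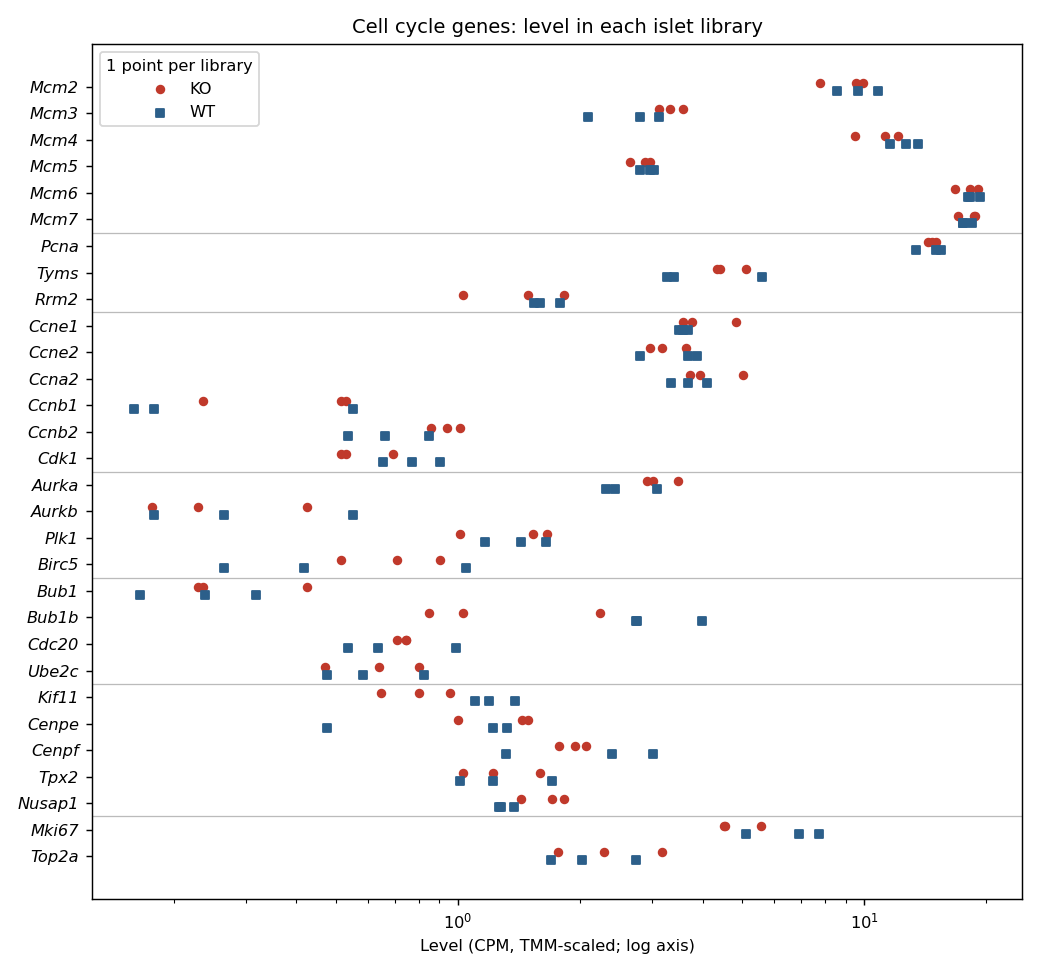
Level of each cell cycle gene in CPM on a log axis, 1 point per library, with KO as circles above WT as squares and grey lines between roles. Mcm7, Mcm6, Pcna, Mcm4 and Mcm2 lie highest, and the points of both genotypes overlap for all genes but Mcm3, Ccnb2, Bub1b, Kif11 and Nusap1.

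Levels between genes were compared per kilobase of exon in GENCODE M21, which may not be the annotation the counts were made with. Pcna, the polymerase clamp gene, was highest at 6.12 CPM per kilobase in KO and 6.10 in WT. Next came the helicase genes Mcm7, at 4.09 and 4.03, and Mcm6, at 3.86 and 3.97 CPM per kilobase in KO and WT. Bub1, a checkpoint kinase gene, was lowest at 0.0681 CPM per kilobase in KO and 0.0553 in WT. G1 cyclins and kinases are expressed by cells outside division too. Of the 6 genes listed as such, Ccnd1, Ccnd2 and Cdk4 exceeded Pcna per kilobase in both genotypes. Ccnd3, Cdk2 and Cdk6 did not. Ccnd2, the main D-type cyclin of mouse beta cells, stood at 85.0 and 86.1 CPM per kilobase in KO and WT, and Cdk4, the kinase it activates, at 33.5 and 31.1. Per kilobase, Ccnd2 and Cdk4 exceeded each of the 30 members in both genotypes.

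The promoters of these genes carry short elements that the cell cycle literature knows well. The CHR is bound by the DREAM complex in resting cells and by MuvB with B-MYB and FOXM1 in G2, the E2F site by E2F and RB proteins, and the CCAAT box by NF-Y. RefSeq promoter windows on GRCm38.p6, from 250 bases before to 50 after a start, were found for 25 of the 30 members. They were searched on both strands for TTTGAA or TTCGAA (CHR letters), for CCAAT, and for the E2F letters, whose matches can overlap each other, which were TTTGGCG in the first form, TTTCCCG in the next form, TTCCCGC in the third form and TTTCGCG in the last form. The CHR letters were in 14 of the 25 members (56.0%), against 19.2% of all 32851 windows. Among the 17 members outside the S phase group they were in 12 (70.6%), and among the 8 of the S phase group in 2. The E2F letters were in 4 of the 8 S phase members and 3 of the 17 others (17.6%), beside 8.81% of all windows. CCAAT was in 21 of the 25 members (84.0%), against 37.4% of all windows. A gene with several windows was counted once if any window held the letters. Of members with CHR letters, 13 were tested, 7 lower and 6 higher in KO, and their median log2 ratio was -0.021. The 10 tested members without them had a median of 0.18, with 3 lower and 7 higher. For E2F letters the medians were 0.021 in 7 tested members with them and 0.0087 in 16 without. These differences were not tested, and the SE of a member's log2 ratio had a median of 0.249. A match of letters describes the window and does not show binding.

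Windows are printed for the mitotic genes with the smallest p, Bub1b, Mki67 and Kif11, and for Mcm6 as an S phase gene with E2F letters. Capitals mark CHR, CCAAT and E2F letters on either strand, and each sequence runs 5′ to 3′ on the strand of its gene. They come from chr2:118597961-118598260 on the plus strand (Bub1b), chr7:135716330-135716629 on the minus strand (Mki67), chr19:37376132-37376431 on the plus strand (Kif11) and chr1:128359656-128359955 on the minus strand (Mcm6).
Bub1b: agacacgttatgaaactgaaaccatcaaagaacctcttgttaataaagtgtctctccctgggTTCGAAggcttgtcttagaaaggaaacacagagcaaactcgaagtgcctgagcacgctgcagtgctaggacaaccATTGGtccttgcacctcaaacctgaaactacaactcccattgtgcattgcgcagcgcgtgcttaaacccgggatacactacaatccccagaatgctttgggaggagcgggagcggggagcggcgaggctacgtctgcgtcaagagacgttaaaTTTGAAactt
Mki67: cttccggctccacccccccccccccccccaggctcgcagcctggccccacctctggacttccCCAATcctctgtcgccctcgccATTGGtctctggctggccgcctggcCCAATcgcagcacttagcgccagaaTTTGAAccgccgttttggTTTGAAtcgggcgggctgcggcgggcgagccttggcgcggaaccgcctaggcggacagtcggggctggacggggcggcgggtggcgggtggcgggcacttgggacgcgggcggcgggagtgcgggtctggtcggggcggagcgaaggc
Kif11: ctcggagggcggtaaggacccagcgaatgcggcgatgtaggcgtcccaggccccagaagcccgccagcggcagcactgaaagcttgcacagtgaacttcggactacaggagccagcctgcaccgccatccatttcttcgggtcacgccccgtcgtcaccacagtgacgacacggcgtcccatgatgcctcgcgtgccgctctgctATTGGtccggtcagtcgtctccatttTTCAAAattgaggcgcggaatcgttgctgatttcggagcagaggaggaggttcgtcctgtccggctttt
Mcm6: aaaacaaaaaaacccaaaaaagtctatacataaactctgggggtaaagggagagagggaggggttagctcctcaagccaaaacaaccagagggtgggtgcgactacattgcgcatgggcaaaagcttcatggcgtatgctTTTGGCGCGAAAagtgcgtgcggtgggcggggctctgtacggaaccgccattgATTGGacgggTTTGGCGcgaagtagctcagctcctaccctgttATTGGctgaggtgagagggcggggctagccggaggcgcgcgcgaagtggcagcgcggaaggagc
Bub1b has CHR letters at -188 and 41 bases from its start, Mki67 at -116 and -98, and Kif11 at -19. Mcm6 has E2F letters at -110, -105 and -47 bases and no CHR letters.

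**Figure D4:**
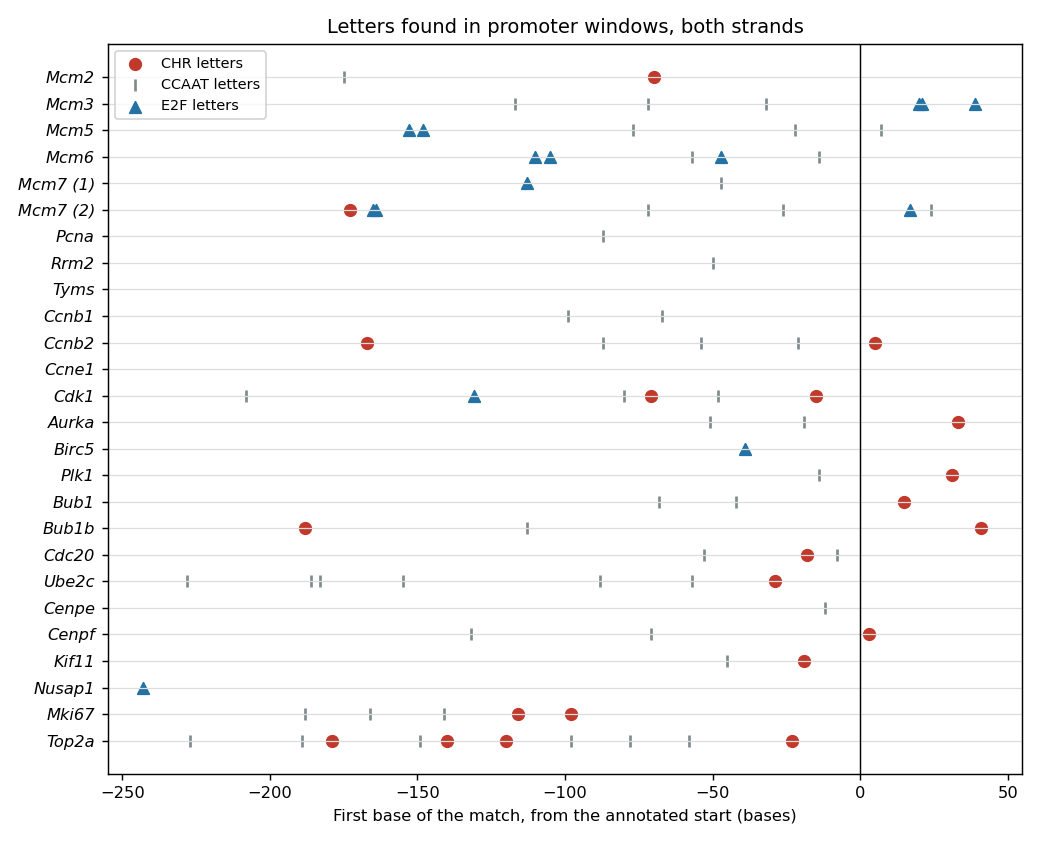
Position of the first base of each match in the promoter windows of 25 cell cycle genes, in bases from the annotated start, on either strand. Circles are CHR letters, bars CCAAT and triangles E2F letters; circles lie mostly in the mitotic genes and triangles mostly in the Mcm genes.

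The 6 subunits of the replicative helicase made up the largest part of the summed level. Together Mcm2 to Mcm7 stood at 62.7, 61.1 and 63.3 CPM in KO libraries and 66.2, 62.0 and 64.8 CPM in WT libraries. For 2 of the 6 the KO mean was the higher one and for 4 the lower, and their log2 ratios lay between -0.20 and 0.32. Mcm4 had 12.1, 9.5 and 11.2 CPM in KO libraries, against 13.6, 12.7 and 11.6 CPM in WT libraries. KO library 1 lay above WT library 3, so the groups overlapped, and the log2 ratio was -0.20 (SE 0.111, edgeR adjusted p 0.506). Mcm3 had 3.13, 3.32 and 3.59 CPM in KO libraries, against 3.13, 2.08 and 2.81 CPM in WT libraries. Its groups did not overlap only because KO library 1 lay just above WT library 1, and the log2 ratio was 0.32 (SE 0.194, edgeR adjusted p 0.565). Mcm6 averaged 18 ± 1.2 CPM in KO and 18.5 ± 0.675 CPM in WT (SD, n = 3 each), with a 95% interval of the log2 ratio from -0.22 to 0.14. For Mcm7 that interval ran from -0.16 to 0.20, for Mcm2 from -0.35 to 0.16 and for Mcm5 from -0.43 to 0.33.

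The genes of DNA synthesis and nucleotide supply overlapped between the genotypes. Pcna had 14.4, 14.7 and 15 CPM in KO libraries, against 15.1, 13.4 and 15.5 CPM in WT libraries. The KO libraries lay within the WT range, and the 95% interval of the log2 ratio was -0.19 to 0.20. Tyms, the thymidylate synthase gene, had 4.35, 4.41 and 5.12 CPM in KO libraries, against 3.40, 3.28 and 5.61 CPM in WT libraries. WT library 3 was the highest of all 6 for Tyms, and the log2 ratio was 0.17 (SE 0.193). Rrm2, which encodes the S phase subunit of ribonucleotide reductase, averaged 1.45 ± 0.399 CPM in KO and 1.64 ± 0.130 CPM in WT (SD, n = 3 each).

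The cyclin genes had values on both sides of WT. The E-type cyclins Ccne1 and Ccne2, which start S phase with CDK2, had log2 ratios of 0.18 (SE 0.171) and -0.081 (SE 0.184). Ccna2, the cyclin of S phase and G2, averaged 4.24 ± 0.709 CPM in KO and 3.71 ± 0.384 CPM in WT (SD, n = 3 each), and KO library 1 was the highest for both Ccne1 and Ccna2. The B-type cyclin Ccnb2 had 1.009, 0.859 and 0.942 CPM in KO libraries, against 0.849, 0.536 and 0.660 CPM in WT libraries. All 3 KO libraries lay above all 3 WT libraries, by 0.859 against 0.849 CPM at the closest, with a log2 ratio of 0.45 (SE 0.331, edgeR adjusted p 0.640). Ccnb1, the other mitotic B-type cyclin, was too low for the filter, with 10, 9 and 4 counts in KO libraries and 3, 3 and 10 counts in WT libraries. Its sums of 23 counts in KO and 16 in WT had exact 95% Poisson intervals of 14.6 to 34.5 and 9.15 to 26.0, which overlap. Cdk1, the kinase that B-type cyclins activate, had values on the other side, 0.690, 0.515 and 0.530 CPM in KO libraries and 0.902, 0.655 and 0.770 CPM in WT libraries. Its groups overlapped, and the interval of its log2 ratio ran from -1.16 to 0.32.

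Of the mitotic kinases, Aurka, which matures centrosomes, had 3.03, 2.92 and 3.47 CPM in KO libraries, against 2.44, 3.10 and 2.31 CPM in WT libraries. WT library 2 lay above 2 of the KO libraries, and the log2 ratio was 0.27 (SE 0.194, edgeR adjusted p 0.635). Plk1, the polo-like kinase of mitotic entry, averaged 1.40 ± 0.345 CPM in KO and 1.42 ± 0.242 CPM in WT (SD, n = 3 each). Aurkb and Birc5 encode the kinase and the survivin subunit of the chromosomal passenger complex. Aurkb was below the filter, with 3 to 8 counts in KO libraries and 3 to 10 in WT libraries. Birc5 had 0.903, 0.515 and 0.706 CPM in KO libraries, against 0.265, 0.417 and 1.05 CPM in WT libraries. WT library 3 alone exceeded every KO library for Birc5, and the interval of the log2 ratio was wide, from -0.63 to 1.23.

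Bub1b stood furthest from WT among the cell cycle genes. It encodes BUBR1, which holds back the anaphase-promoting complex until the chromosomes are attached. Bub1b had 0.850, 1.03 and 2.24 CPM in KO libraries, against 2.76, 3.99 and 2.75 CPM in WT libraries, from 16, 18 and 38 counts in KO and 52, 67 and 50 counts in WT. All 3 KO libraries lay below all 3 WT libraries, with KO library 3 nearest to WT. Bub1b averaged 1.37 ± 0.754 CPM in KO and 3.17 ± 0.714 CPM in WT (SD, n = 3 each). The log2 ratio was -1.21 (SE 0.302, 95% interval -1.85 to -0.57), with an unadjusted p of 0.00103, the 64th smallest of 16240, and an edgeR adjusted p of 0.261. Bub1b therefore did not pass over all genes. Without KO library 3 it passed, at a log2 ratio of -1.74 and an edgeR adjusted p of 0.00557. Without a filter on low counts it also passed (edgeR adjusted p 0.000583), a setting in which 272 of 26754 genes were called. The main fit called 2 of 16240 genes. In the other settings with an adjusted p Bub1b did not pass, at values from 0.125 to 1.0. Against WT library 3 alone, the WT library low in acinar transcripts, the log2 ratio of Bub1b was -1.02 (SE 0.422). GENCODE M21 places Bub1b on the plus strand of chromosome 2 of GRCm38, between 118598211 and 118641591, and lists no gene that overlaps it.

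Among the other members of that step, Cdc20 and Ube2c had similar means in both genotypes, and Bub1 was too low to test. Bub1, the kinase that recruits BUBR1 to kinetochores, had 8, 4 and 4 counts in KO libraries and 6, 4 and 3 counts in WT libraries, below the filter. Cdc20, the activator that the checkpoint blocks, averaged 0.731 ± 0.0216 CPM in KO and 0.721 ± 0.238 CPM in WT (SD, n = 3 each). Ube2c, the ubiquitin-conjugating enzyme of the complex, averaged 0.637 ± 0.165 CPM in KO and 0.628 ± 0.179 CPM in WT (SD, n = 3 each). The log2 ratios of Cdc20 and Ube2c were both 0.015, with SE of 0.355 and 0.382. Ube2c shares 592 exonic bases with Tnnc2 on the opposite strand, and without the strand setting of the counting step those reads cannot be assigned with certainty. The same holds for Ccne2 (609 bases shared with Ints8), Ccna2 (510 with Exosc9), Mcm7 (321 with Ap4m1), Nusap1 (172 with Oip5), Plk1 (156 with Gm44985) and Cdc20 (53 with Elovl1). Top2a shares 122 exonic bases with a small nucleolar RNA gene on its own strand.

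Among the spindle and kinetochore genes, Kif11 and Nusap1 had groups that did not overlap, in opposite directions. Kif11, the kinesin that pushes the spindle poles apart, had 0.956, 0.801 and 0.647 CPM in KO libraries, against 1.38, 1.19 and 1.1 CPM in WT libraries. Every KO library was below every WT library, from 11 to 18 counts in KO and 20 to 26 in WT, and the log2 ratio was -0.60 (SE 0.303, edgeR adjusted p 0.473). Nusap1, a microtubule-binding protein of the spindle, had 1.70, 1.43 and 1.82 CPM in KO libraries, against 1.27, 1.37 and 1.27 CPM in WT libraries. Its log2 ratio was 0.34 (SE 0.250, edgeR adjusted p 0.635). Cenpe and Cenpf, which encode a kinetochore motor and a kinetochore scaffold, were both lowest in WT library 2, at 0.477 and 1.31 CPM. Their KO values of 1.001 to 1.49 and 1.77 to 2.07 CPM overlapped the WT libraries, with log2 ratios of 0.36 and -0.22. Tpx2, which activates Aurora A on the spindle, averaged 1.28 ± 0.284 CPM in KO and 1.31 ± 0.355 CPM in WT (SD, n = 3 each).

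Mki67, the gene of the proliferation antigen Ki-67 that is used to count cycling cells, had a lower mean in KO. It had 5.58, 4.52 and 4.53 CPM in KO libraries, against 6.90, 5.12 and 7.76 CPM in WT libraries. KO library 1 lay above WT library 2, so the groups overlapped. Mki67 averaged 4.88 ± 0.606 CPM in KO and 6.59 ± 1.34 CPM in WT (SD, n = 3 each), a log2 ratio of -0.44 (SE 0.161, 95% interval -0.77 to -0.10) with an unadjusted p of 0.0137 and an edgeR adjusted p of 0.354. The value stayed below 0 in all 16 alternatives, from -0.81 with the acinar covariate to -0.30 without WT library 3, and it passed in none of the 15 that gave an adjusted p. Top2a, the topoisomerase that untangles replicated DNA, had values the other way, 3.19, 2.29 and 1.77 CPM in KO libraries and 1.70, 2.03 and 2.75 CPM in WT libraries. The Top2a groups overlapped, with a log2 ratio of 0.17 (SE 0.249) that turned to -0.30 with the acinar covariate, -0.18 against WT library 3 alone and -0.087 without KO library 1.

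**Figure D5:**
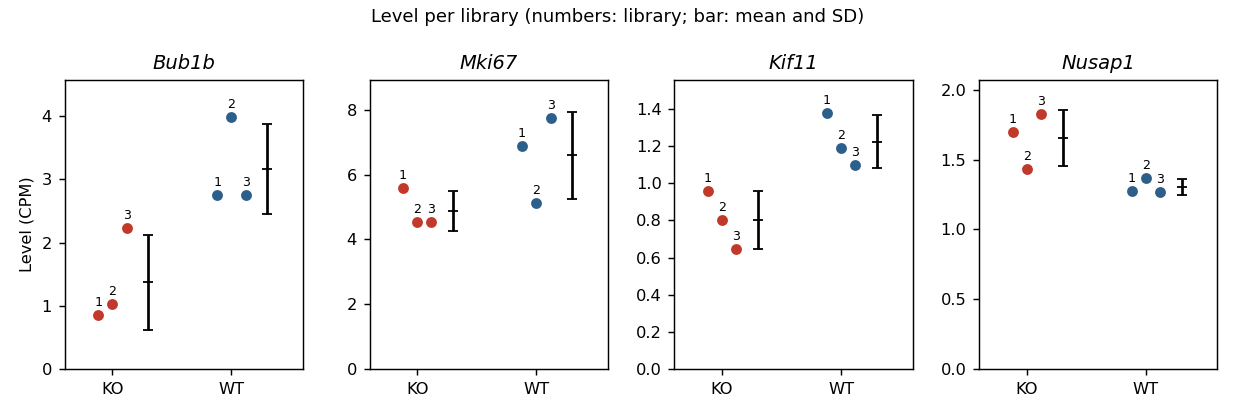
Level in CPM of Bub1b, Mki67, Kif11 and Nusap1 in each KO and WT library, with library numbers beside the points and the mean and SD (n = 3) as bars. Bub1b lies at 0.850 to 2.24 CPM in KO and 2.75 to 3.99 CPM in WT, and the Mki67 points of both genotypes overlap.

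Other genes of the cycle were taken from 5 further lists, and edgeR called 0 of their 98 tested members at an adjusted p of 0.05. Unadjusted, 5 of the 98 had a p under 0.05, beside 11.0% of all genes tested, and DESeq2 called 0 of the 12 to which it gave an adjusted p, beside 1.02% of all genes with one. Of other S phase genes, 26 of 31 were tested, with 12 higher and 14 lower values and a median log2 ratio of -0.039. The smallest p there belonged to Pola1, the catalytic subunit of DNA polymerase alpha, with 7.01, 5.44 and 7.24 CPM in KO libraries and 9.39, 7.45 and 7.65 CPM in WT libraries (log2 ratio -0.32, edgeR adjusted p 0.422). Pola2, the next subunit of that polymerase, and Rfc5, a clamp loader subunit, had values of 0.18 each on the higher side. Of other mitosis genes, 41 of 52 were tested, with 18 higher and 23 lower values and a median of -0.039. Spc25, a subunit of the NDC80 kinetochore complex, had 85.5, 83.0 and 81.4 CPM in KO libraries, against 66.4, 78.2 and 72.8 CPM in WT libraries. All KO libraries lay above WT for Spc25, with a log2 ratio of 0.20 (SE 0.0608, edgeR adjusted p 0.274). The genes of the other subunits of that complex, Ndc80, Nuf2 and Spc24, were far lower. They averaged 0.595, 0.744 and 1.89 CPM in KO and 0.590, 0.720 and 2.06 CPM in WT. The level of Spc25 therefore did not follow that of its complex, and the source of its counts was not tested. Overlapping genes were looked up only for the members and Igf2r. Knl1, the kinetochore scaffold to which BUB1 and BUBR1 bind, had 0.212, 0.229 and 0.765 CPM in KO libraries, against 0.902, 0.834 and 0.825 CPM in WT libraries. As for Bub1b, KO library 3 was the KO library nearest to WT, and the log2 ratio of Knl1 was -1.10 (SE 0.438, edgeR adjusted p 0.389) from 4 to 13 counts in KO and 14 to 17 in WT. Racgap1, of the cytokinesis machinery, had a log2 ratio of -0.22 (SE 0.092, edgeR adjusted p 0.406).

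None of the regulators above these genes passed in edgeR. Of 18 tested E2F, RB, DREAM and FoxM1 genes, 7 lay higher and 11 lower, at a median log2 ratio of -0.037. Foxm1, the transcription factor of G2 and mitosis genes, had 2.92, 2.29 and 2.71 CPM in KO libraries, against 3.71, 3.04 and 3.36 CPM in WT libraries. The Foxm1 groups did not overlap, with a log2 ratio of -0.35 (SE 0.188, edgeR adjusted p 0.497). Of the 18, groups did not overlap for 2 on the lower side, Foxm1 among them, and for 2 on the higher side, E2f1 and Lin9. Over all genes tested the shares were 7.69% and 8.02%. E2f1, an activator of S phase genes, averaged 9.27 ± 0.177 CPM in KO and 7.96 ± 1.19 CPM in WT (SD, n = 3 each; log2 ratio 0.22), and Lin9, a MuvB subunit, had a log2 ratio of 0.24. Of the 6 G1 cyclins and kinases, 3 were on each side, with Cdk4 at 0.11, Ccnd3 at 0.12 and Ccnd1 at -0.11 on the log2 scale. Of 7 CDK inhibitors, 6 had higher values, at a median of 0.053. Cdkn2b, which encodes the CDK4 and CDK6 inhibitor p15, had 13.2, 13.1 and 12.7 CPM in KO libraries, against 10.5, 10.7 and 12.4 CPM in WT libraries (log2 ratio 0.22, edgeR adjusted p 0.448). Cdkn2a averaged 0.948 ± 0.241 CPM in KO and 0.634 ± 0.480 CPM in WT (SD, n = 3 each), with overlapping groups and a log2 ratio of 0.56 (SE 0.430, edgeR adjusted p 0.658). Cdkn1b, the gene of p27, averaged 95.6 ± 6.65 CPM in KO and 92.1 ± 1.58 CPM in WT (SD, n = 3 each).

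Markers of cells that could carry these transcripts were set beside them. Endothelial markers summed to 1227 to 1314 CPM in KO and 1149 to 1247 CPM in WT, with 9 of 9 tested genes higher. Macrophage markers summed to 158.8 to 168.2 CPM in KO and 133.6 to 158.5 CPM in WT, with 5 of 10 higher. All KO sums of macrophage markers lay above all WT sums, by 158.8 against 158.5 CPM at the closest. Stellate and fibroblast markers summed to 381 to 399 CPM in KO and 373 to 400 CPM in WT, with 4 of 10 higher. Lymphocyte markers summed to 39.7 to 45.3 CPM in KO and 45.2 to 55.1 CPM in WT, and 3 of 10 were tested. Acinar markers were lower in all 19 tested genes, as their sums above show, and Ptf1a, the acinar transcription factor gene, had 0, 0 and 1 counts in KO libraries and 3, 7 and 2 in WT libraries. Beta cell markers summed to 143039 to 163990 CPM in KO and 130664 to 150243 CPM in WT, with 7 of 9 higher, so the labelled tissue carried its defining markers. With adjustment over all genes, edgeR called 0 of the 89 marker genes tested, beside 0.0123% of all genes tested. Of the 89, 36 had an unadjusted p under 0.05, beside 11.0% of all genes tested. Those were 19 acinar genes, all lower, and genes of other lists. Among these were 5 beta cell genes higher and 1 lower, 3 duct genes (all lower), and 2 macrophage genes higher and 1 lower. The rest were 1 endothelial, 1 erythroid and 1 Schwann gene (each higher), and 1 lymphocyte and 1 delta and PP cell gene (each lower). Of the stellate and fibroblast genes there were 0. DESeq2 called 16 of the 49 marker genes to which it gave an adjusted p, beside 1.02% of all genes with one. The part of these cells in the values of Bub1b, Mki67 or Kif11 was not tested.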

How the data were processed

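RNA was measured in 3 KO and 3 WT libraries of mouse islets. Per the labels' protocols, total RNA went into a strand-specific library preparation. The submitters' processing notes name Trimmomatic 0.39, STAR 2.7.10b, featureCounts 2.0.3 and mm10. The sources used here name neither the annotation nor the strand setting of the counting. The authors deposited raw counts per gene with no normalization. KO columns are numbered differently from the KO sample titles, so they were used as libraries of the group.

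Genes were kept by filterByExpr (minimum count 10, minimum total 15), scaled by TMM and tested, KO against WT, by glmQLFit (robust) and glmQLFTest in edgeR 4.0.16, two-sided, with Benjamini-Hochberg adjustment over all genes tested and a threshold of 0.05. The SE is the log2 ratio divided by the square root of F. Alternatives used DESeq2 1.42.0, limma 3.58.1 (voom), 3 other scalings, 2 other filters, no robust estimation, an acinar covariate (mean log2 CPM, prior count 2), WT library 3 alone, a threshold of 0.1 and each library left out, in R 4.3.3. Positions and exon lengths came from GENCODE M21 on GRCm38, which holds all 30 members.

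The named genes were all members, Igf2r and the 3 of each further cell cycle list with the smallest p. Ccnd2, Cdk2, Cdk6, Ndc80, Nuf2, Spc24, Ptf1a and the genes next to Bub1b were named beyond this after their values were seen. The members, lists and tests were chosen with earlier results of these data known.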

Additional observations from a re-analysis of the deposited data

How the results depend on the processing

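No member was called with the 3 other scalings, limma-voom, the stricter filter, no robust estimation, the acinar covariate, WT library 3 alone or a threshold of 0.1. With no filter 1 member (Bub1b) was called, and leaving out 1 library each gave 0 to 1, the 1 being Bub1b without KO library 3. Over all genes, calls numbered 272 with no filter, 62 in DESeq2, 1 in limma-voom, 1 without robust estimation, 0 with the acinar covariate, and 0 to 114 with 1 library left out, highest without WT library 3. With all libraries edgeR called 2 genes and gave 1785 an unadjusted p under 0.05, and with the acinar covariate 442.

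The member median log2 ratio was -0.19 with the acinar covariate (18 of 27 lower, beside a median of 0.0029 over all genes), -0.092 against WT library 3 alone (20 of 27 lower, beside 0.00026), and -0.041 to 0.11 with 1 library left out, highest without WT library 3. The ratio of summed levels, KO over WT, was 0.948 to 0.997 with 1 library left out. It was 0.928 with WT library 3 as the sole WT library, a setting that was chosen after seeing the data. The direction held in all alternatives for 12 of 27 members, Bub1b, Mki67 and Kif11 among them. With the acinar covariate the sign turned for Mcm2 (0.0070), Mcm7 (-0.013), Pcna (-0.10), Tyms (-0.46), Ccne2 (0.18), Birc5 (-1.17), Cdc20 (-0.57), Ube2c (-0.24) and Top2a (-0.30). The SE was larger there than in the main fit, such as 0.218 against 0.124 for Mcm2 and 0.258 against 0.161 for Mki67. Against WT library 3 alone, which assumes that it varies like the KO libraries, it turned for Mcm7 (-0.028), Pcna (-0.076), Tyms (-0.28), Ccne2 (0.22), Birc5 (-0.55), Cdc20 (-0.43), Ube2c (-0.37), Cenpe (-0.012) and Top2a (-0.18). With 1 library left out the log2 ratio ranged from -0.056 to 1.06 for Birc5, -0.21 to 0.013 for Ccne2, -0.15 to 0.31 for Cdc20, -0.48 to 0.053 for Cenpf, -0.17 to 0.0067 for Mcm2, -0.083 to 0.010 for Mcm6, -0.0037 to 0.066 for Mcm7, -0.055 to 0.046 for Pcna, -0.16 to 0.17 for Plk1, -0.37 to 0.013 for Rrm2, -0.087 to 0.39 for Top2a, -0.22 to 0.19 for Tpx2 and -0.18 to 0.26 for Ube2c. The causes were not tested. No paired analysis was possible because the titles number WT samples 1 to 3 and KO samples 4 to 6. The depth, 3 to 351 counts per member and library, limits what these values can show.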

Other observations

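The genes next to Bub1b on chromosome 2 were looked at after its values were seen. Bmf, a BH3-only gene of the apoptosis pathway that ends 48523 bases before Bub1b, had 9.35, 12.7 and 11.2 CPM in KO libraries, against 13.9, 15.3 and 14.8 CPM in WT libraries. All KO libraries lay below WT for Bmf, as for 7.69% of all genes tested. Its log2 ratio was -0.41 (SE 0.111, edgeR unadjusted p 0.00137, adjusted p 0.270). Pak6, a kinase gene 21711 bases after Bub1b, had 5.63, 4.98 and 5.53 CPM in KO libraries, against 4.56, 6.91 and 5.17 CPM in WT libraries, and its groups overlapped. Knl1 lies 405527 bases after Bub1b. Of the 29 other protein-coding genes tested within 1 megabase of Bub1b, 17 had lower and 12 higher values, with a median log2 ratio of -0.034. An unadjusted p under 0.05 was found for 2 (Bmf and Knl1), beside 11.0% of all genes tested. The groups did not overlap for 3 on the lower side and 1 on the higher, beside 7.69% and 8.02% of all genes tested. These counts leave out Bub1b itself, and a difference between this neighbourhood and all genes was not tested.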
